A study of Mus musculus with 4 samples.

Results

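The ERBB receptors and the growth factors that bind them were followed in cultured mouse mammary tumour cells. The set held the receptor genes Egfr, Erbb2 and Erbb3 and the ligand genes Areg, Ereg, Hbegf, Tgfa, Btc, Epgn and Nrg1. These 10 genes were chosen by symbol, with earlier results of these data known, and all 10 were among the 23361 genes of the deposited table.

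The cells came from a mammary tumour of the Chaos3 mouse (strain C3HeB/FeJ, per the labels), a model that carries a mutant allele of the replication helicase gene Mcm4, and RNA was sequenced from 4 libraries. The High group held 2 libraries, AB-C1 and AB-C2, each from a clone transduced with a lentiviral vector to over-express Arid1a and labelled High Arid1a. The Low group held 2 libraries, UT-R1 and UT-R2, of the parental tumour line 23116 MT, labelled Low Arid1a. All 4 libraries therefore trace to the same tumour line, and no vector is named for the Low cells. The table numbers the libraries within each group without saying which High library is which clone, so High library 1 and 2 and Low library 1 and 2 are names only. Nothing in the labels makes the Low duplicates separate cultures. The p-values therefore reflect the spread between these 4 libraries alone, which may be technical, and being a clone cannot be told apart from carrying the vector.

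The ERBB receptors are cell-surface tyrosine kinases that signal in pairs, mainly through the RAS-MAPK and PI3K-AKT pathways. Egfr encodes the receptor of EGF and its close relatives, Erbb2 a receptor with no known ligand that pairs with the others, and Erbb3 a neuregulin receptor with a weak kinase. The ligands are made as membrane-anchored precursors and are released by proteases such as ADAM17; amphiregulin, the product of Areg, acts downstream of oestrogen in the growth of mouse mammary ducts.

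The libraries held 16523077 and 24307249 fragments in the High group and 13889856 and 28110812 in the Low group. Arid1a, the targeted gene, was at 49.9 and 58.4 CPM in the libraries labelled High, against 82.4 and 94.4 CPM in those labelled Low, where CPM is fragments per 1e+06 after normalisation between libraries. It was thus lower under the High label (log2 fold change -0.71 ± 0.23, SE) without passing the test (adjusted p = 0.165, but 0.0360 without High library 2, range over the alternatives 0.0360 to 0.840). Wherever a High library is left out, the lone High library is taken to vary as the Low duplicates do, and 2225 (without High library 1) and 2446 (without High library 2) of all 12977 tested genes then pass. The sources used here do not say whether fragments of the vector were assigned to Arid1a, so directions below are those of the libraries labelled High. Of 8 mammary epithelial markers 0 were at 0 in every library, and their summed FPKM (fragments per kilobase of transcript, scaled to library size) was 801.5 and 2499 in the High libraries and 1323 and 927.6 in the Low libraries. Elf5, one of them, was at 0 in High library 2 but at 10.9 CPM in High library 1, against 1.47 and 1.58 CPM in the Low libraries. Cdh1 was at 264 and 387 CPM in the High libraries, against 131 and 146 CPM in the Low libraries (2.35-fold, edgeR adjusted p = 0.0578). Epcam was at 114 and 242 CPM in the High libraries, against 92.9 and 78.8 CPM in the Low libraries (edgeR adjusted p = 0.216). Cdh1 and Epcam thus lay above both Low libraries without passing, while the other epithelial markers overlapped. The basal markers summed to 870.4 and 1803 FPKM in the High libraries and 1219 and 903.6 FPKM in the Low libraries, but these genes did not move together: Acta2 fell to 22.8 and 8.65 CPM in the High libraries, against 1323 and 1156 CPM in the Low libraries (adjusted p = 0.00983), while Krt14 (2.47-fold) and Trp63 (8.43-fold) were above both Low libraries without passing. The summed FPKM of 7 fibroblast markers was 279.3 and 38.7 in the High libraries and 1082 and 972.6 in the Low libraries, with Lum at 0 throughout. Of these, Fap fell (adjusted p = 0.00739), Col1a1 and Col3a1 lay below both Low libraries without passing, Pdgfra overlapped, and Dcn was above both Low libraries without passing (195 and 19.7 CPM in the High libraries, against 4.2 and 5.46 CPM in the Low libraries, adjusted p = 0.248). Of the immune markers Cd3e and Ms4a1 were at 0 in every library, but Csf1r was at 20.8 and 27.5 CPM in the High libraries and 8.69 and 8.69 CPM in the Low libraries (log2 fold change 1.48, adjusted p = 0.0579). The immune list summed to 7.23 and 7.99 FPKM in the High libraries and 3.38 and 3.48 FPKM in the Low libraries, and 5 endothelial markers summed to at most 0.226 FPKM. The part of these marker differences in the results below was not tested, and in bulk RNA fewer cells of a type and less RNA per cell cannot be told apart.

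Of the 9 members with enough fragments to test, the ligand genes Areg and Epgn rose in the High libraries and Egfr fell, while Erbb2, Erbb3, Hbegf, Tgfa, Btc and Nrg1 did not pass the test. Across all 12977 genes tested, 2.47% passed, 1.14% as higher and 1.33% as lower in the High libraries. Both High libraries lay above both Low libraries for 7 of the 9 members and below them for 1, against 25.9% and 25.2% of all tested genes. An unadjusted p under 0.05 was reached by 8 of the 9, against 18.1% of all tested genes. The median log2 fold change was 1.35 over the 9 members and 0.03 over all tested genes. As the members were chosen with earlier results of these data known, these contrasts are a description and not independent support. Of 3 tested family genes outside the set, 0 reached an unadjusted p under 0.05 (edgeR), and their median log2 fold change was -0.08. Every tested member had at least 14 fragments in each library. Ereg, which encodes epiregulin, had 0 fragments in all 4 libraries, and a count of 0 allows up to 3 fragments, or 0.107 to 0.216 CPM depending on the library.

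**Figure D1:**
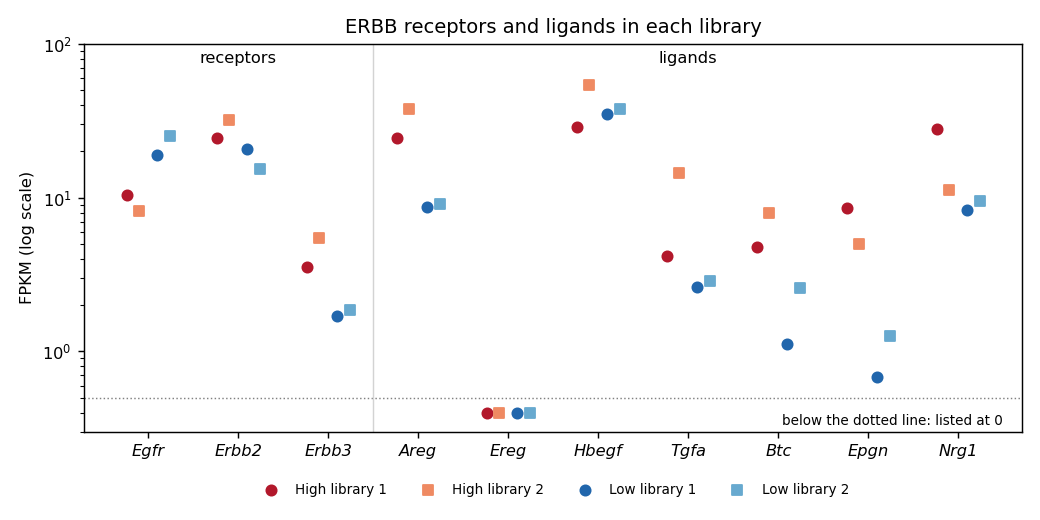
FPKM of the 3 receptor and 7 ligand genes in each library, on a log axis, with High libraries in red tones and Low libraries in blue tones and 1 point per library. Egfr is lower in both High libraries, and Erbb2, Erbb3, Areg, Tgfa, Btc, Epgn and Nrg1 are higher in both. Hbegf overlaps, and Ereg is listed at 0 in all 4.

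Among the receptors, Egfr (ENSMUSG00000020122.16, plus strand of chromosome 11, 16752203 to 16918158, mm10) was at 55.1 and 40.5 CPM in the High libraries, against 102 and 141 CPM in the Low libraries. Both High libraries lay below both Low libraries, from 941 and 993 fragments in the High group and 1389 and 3849 in the Low group. The gene fell 2.55-fold in the High libraries, with a mean of 47.8 ± 10.3 CPM against 122 ± 27.5 CPM in the Low libraries (SD, n = 2 each), a log2 fold change of -1.35 ± 0.27 (SE). It passed edgeR's quasi-likelihood test only narrowly (adjusted p = 0.0492, range over the alternatives 1.15e-05 to 0.762). The call was kept in 7 of 13 alternatives: the adjusted p was 0.0572 with upper-quartile normalisation, 0.0681 with limma-voom, and 0.0941 and 0.0830 with limma on log2(FPKM + 1) and log2(FPKM + 0.1). It was also lost without Low library 1 (log2 fold change -1.56, adjusted p = 0.518) and without Low library 2 (-1.10, 0.762), where the spread rests on the High libraries alone.

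Erbb2 (chromosome 11, 98412470 to 98437716, mm10), the partner receptor amplified in some human breast cancers, was at 119.9 and 155 CPM in the High libraries and 99.7 and 74.9 CPM in the Low libraries. The groups did not overlap, but the log2 fold change of 0.66 ± 0.25 (SE, 95% interval 0.07 to 1.25) did not pass (adjusted p = 0.236). It passed without High library 1 (0.83, adjusted p = 0.0284, range over the alternatives 0.0284 to 0.865). Exons of Erbb2 overlap those of Mien1 on the opposite strand, and Mien1 had a log2 fold change of 0.61 ± 0.27 (SE, adjusted p = 0.280). The strand setting of the counting is not given in the sources used here, so fragments in the overlap cannot be assigned to either gene with certainty. Exons of Tgfa (Gm43917), Nrg1 (Gm26578) and Ereg (Gm19610) also overlap genes on the opposite strand that are not among the genes analysed here, so the same limit holds for the values of Tgfa and Nrg1.

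Erbb3 (chromosome 10, 128567523 to 128589652, mm10) had the lowest FPKM of the 3 receptors, averaging 4.50 ± 1.36 FPKM in the High libraries and 1.78 ± 0.109 FPKM in the Low libraries (SD, n = 2 each). It was at 13.8 and 21.2 CPM in the High libraries and 6.55 and 7.15 CPM in the Low libraries. Its log2 fold change of 1.35 ± 0.36 (SE, 95% interval 0.51 to 2.19) was as large as that of Egfr in the other direction and did not pass (adjusted p = 0.110). It passed with no filter on low counts (adjusted p = 0.0470), with DESeq2 (0.0240), and when High library 1 (log2 fold change 1.62, 4.92e-05) or High library 2 (1.001, 0.0437) was left out. The range over the alternatives was 4.92e-05 to 0.794. Erbb4, the remaining receptor of the family, had 0 fragments in all 4 libraries.

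The balance between the receptors can be read per transcript length from the FPKM. The summed FPKM of Egfr, Erbb2 and Erbb3 was 38.5 and 45.4 in the High libraries, against 41.2 and 42.5 in the Low libraries. Egfr made up 26.9% and 17.9% of that sum in the High libraries, against 45.9% and 59.2% in the Low libraries. The share of Erbb2 was 63.9% and 70.0% in the High libraries and 49.97% and 36.4% in the Low libraries, and that of Erbb3 was 9.21% and 12.0% in the High and 4.13% and 4.36% in the Low libraries. The FPKM ratio of Erbb2 to Egfr was 2.38 and 3.91 in the High libraries, against 1.09 and 0.614 in the Low libraries, so the groups did not overlap. On the log2 scale the ratio was 1.61 ± 0.51 in the High and -0.29 ± 0.58 in the Low libraries (SD, n = 2 each). The exact two-sided permutation p of 0.333 is the smallest that 2 against 2 libraries can give. Since Egfr was lower and Erbb2 higher in both High libraries, the ratio had to separate the groups. Its p-value was thereby fixed and adds nothing to the results of the single genes.

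**Figure D2:**
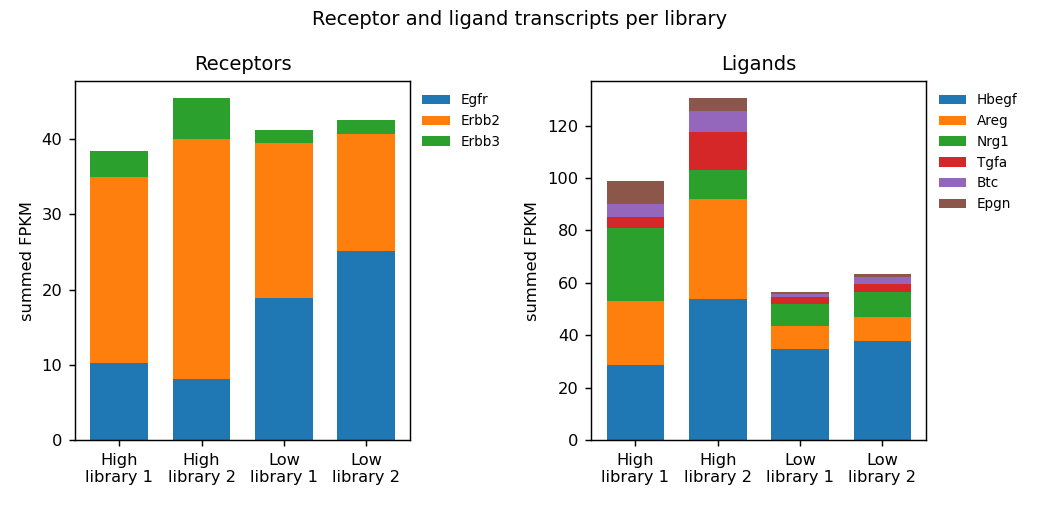
Summed FPKM of the receptor genes (left) and of the detected ligand genes (right) in each library, with 1 stacked bar per library and 1 colour per gene. The receptor sums lie between 38.5 and 45.4 with a smaller Egfr part in the High libraries, and the ligand sums are 98.7 and 130.4 in the High libraries against 56.4 and 63.4 in the Low libraries.

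The ligand genes Epgn, Ereg, Areg and Btc lie in that order within 376 kb of mouse chromosome 5. The 3 that were detected were higher in both High libraries. So were Erbb2, Erbb3, Tgfa and Nrg1, and 25.9% of all tested genes, so this was not particular to the neighbours. The sequences around the RefSeq start sites of Areg, Epgn and Btc are shown beside that of Egfr, which was lower in both High libraries. Each window runs from 250 bases before to 50 bases after the start site, is read on the gene's own strand from RefSeq (GRCm38.p6, the assembly of mm10), and has in capitals any match to the cyclic-AMP response element TGACGTCA, the AP-1 site TGANTCA or the TATA box TATAAA. The Areg window is chr5:91139349-91139648 (plus strand), the Epgn window chr5:91027267-91027566 (plus), the Btc window chr5:91402945-91403244 (minus) and the Egfr window chr11:16751953-16752252 (plus).
Areg: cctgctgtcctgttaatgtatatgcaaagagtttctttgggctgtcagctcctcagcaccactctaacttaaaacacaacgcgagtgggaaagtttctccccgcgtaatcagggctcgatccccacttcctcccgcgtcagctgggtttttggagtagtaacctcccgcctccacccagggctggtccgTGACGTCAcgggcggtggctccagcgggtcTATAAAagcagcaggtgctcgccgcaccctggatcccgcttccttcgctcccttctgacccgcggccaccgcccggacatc
Epgn: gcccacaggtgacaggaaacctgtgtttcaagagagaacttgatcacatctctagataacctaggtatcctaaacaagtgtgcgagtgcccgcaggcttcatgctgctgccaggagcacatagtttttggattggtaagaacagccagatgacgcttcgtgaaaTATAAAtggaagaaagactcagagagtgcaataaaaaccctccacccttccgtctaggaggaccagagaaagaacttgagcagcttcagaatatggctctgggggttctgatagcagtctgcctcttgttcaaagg
Btc: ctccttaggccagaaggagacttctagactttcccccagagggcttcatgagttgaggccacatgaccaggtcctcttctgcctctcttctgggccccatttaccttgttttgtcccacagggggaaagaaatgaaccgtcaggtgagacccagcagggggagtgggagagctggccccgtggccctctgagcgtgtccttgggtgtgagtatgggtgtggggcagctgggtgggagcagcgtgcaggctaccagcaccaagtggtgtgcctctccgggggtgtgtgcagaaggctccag
Egfr: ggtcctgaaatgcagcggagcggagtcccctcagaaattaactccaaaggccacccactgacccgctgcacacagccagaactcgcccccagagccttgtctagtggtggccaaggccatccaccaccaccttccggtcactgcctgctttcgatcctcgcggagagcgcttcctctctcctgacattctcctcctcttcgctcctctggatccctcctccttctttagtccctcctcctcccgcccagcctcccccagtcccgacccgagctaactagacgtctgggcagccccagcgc
Areg held a TGACGTCA at position -61 and a TATAAA at position -31, counted to the first base of the match from the start site, and Epgn held a TATAAA at position -86. The GENCODE start of Epgn, 91027464, lies upstream of the RefSeq start site used here. The match in Epgn is therefore nearer to the start in that annotation. The Btc and Egfr windows held no match to these letters, and neither did those of Erbb2 and Tgfa, which are not shown. Both strands were searched, and no matches overlapped. Among all 32851 windows of this length, 1.79% held TGACGTCA, 7.81% TGANTCA and 13.6% TATAAA. Of the 6 members with a window in the table, 1 held TGACGTCA, 2 held TATAAA and 0 held TGANTCA. A match is a description of the letters and not a measured site.

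Areg (ENSMUSG00000029378.5, plus strand, 91139599 to 91148432, mm10) was at 24.8 and 38.4 CPM in the High libraries, against 8.76 and 9.21 CPM in the Low libraries. The Low duplicates were nearly equal, and both High libraries stood well above them. Areg rose to 31.6 ± 9.67 CPM in the High libraries, against 8.98 ± 0.313 CPM in the Low libraries (SD, n = 2 each), 3.52-fold, with a log2 fold change of 1.81 ± 0.33 (SE, adjusted p = 0.0352, range over the alternatives 4.99e-09 to 0.699). The call was kept in 10 of 13 alternatives. It was lost with limma-voom (adjusted p = 0.0659), without Low library 1 (log2 fold change 1.78, adjusted p = 0.619) and without Low library 2 (1.85, 0.699).

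Epgn (ENSMUSG00000035020.11, plus strand, 91027464 to 91035215, mm10), which encodes the EGFR ligand epigen, had the largest fold change of the 9 tested members. It was at 13.2 and 7.63 CPM in the High libraries, against 1.03 and 1.91 CPM in the Low libraries. The Low values rest on 14 and 52 fragments, with exact Poisson 95% intervals of 7.65 to 23.5 and 38.8 to 68.2 fragments that cover counting error only. Epgn rose 6.93-fold (log2 fold change 2.79 ± 0.55, SE, adjusted p = 0.0465, range over the alternatives 1.29e-10 to 0.663). Limma-voom did not call it (adjusted p = 0.0921), nor did edgeR without Low library 1 (log2 fold change 2.44, adjusted p = 0.620) or without Low library 2 (3.33, 0.663).

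Btc, the betacellulin gene on the minus strand at the far end of the cluster (91357261 to 91402994, mm10), was at 13 and 21.6 CPM in the High libraries and 3.02 and 7.01 CPM in the Low libraries. The groups did not overlap, but the Low duplicates differed, with 41 and 191 fragments. Its log2 fold change of 1.77 ± 0.50 (SE, 95% interval 0.60 to 2.95) was close in size to that of Areg and did not pass (adjusted p = 0.128). It passed narrowly with the library number as a block (adjusted p = 0.0487), and further with no filter on low counts (0.0240), DESeq2 (0.0240), or High library 1 (log2 fold change 2.06, 1.48e-07) or High library 2 (1.33, 0.00548) left out, with a range over the alternatives of 1.48e-07 to 0.685. Without Low library 1 the log2 fold change was 1.304 (adjusted p = 0.685) and without Low library 2 it was 2.52 (0.672). Ereg, which lies between Epgn and Areg, was at 0 in all 4 libraries, as given above.

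The protein-coding genes within 500000 bases on each side of the cluster were set beside it. Parm1, the next gene beyond Btc and a mucin-like membrane protein, rose 6.43-fold in the High libraries (8.78 and 9.18 CPM, against 1.47 and 1.32 CPM in the Low libraries, adjusted p = 0.0333). On the other side, the next gene Mthfd2l, a mitochondrial folate enzyme, was at 21.0 and 42.5 CPM in the High libraries and 35.4 and 37.7 CPM in the Low libraries (log2 fold change -0.20, adjusted p = 0.815). Farther out, the chemokine genes Cxcl1 (-0.31, adjusted p = 0.867) and Cxcl5 (-0.06, 0.978) did not pass, and neither did Cxcl3 (2.71, 0.248), Ppbp (3.56, 0.420) and Rassf6 (2.10, 0.237). Ppbp stood at 3.45 CPM in High library 1 and 104.5 CPM in High library 2, against 4.12 and 4.99 CPM in the Low libraries.

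**Figure D3:**
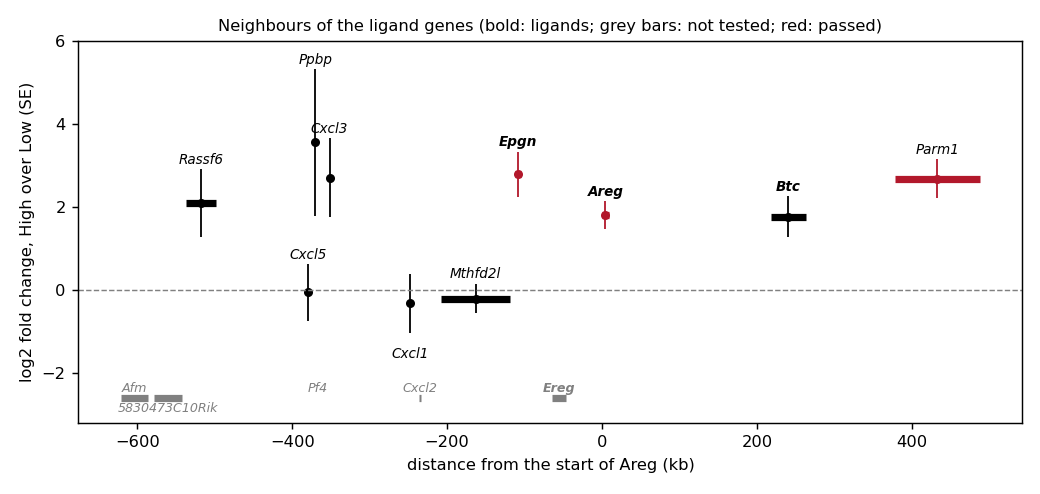
Log2 fold change of High over Low (vertical axis, points with SE bars) for the protein-coding genes around the ligand cluster, placed by distance in kb from the start of Areg, with gene bodies as thick bars. Epgn, Areg and Parm1 passed the test (red), Btc lies at 1.77 without passing, Mthfd2l lies near 0, and Ereg is among the genes with too few fragments to test (grey bars at the bottom of the axis, drawn at no value).

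Of the ligands outside the cluster, Hbegf had the highest mean FPKM of the ligands in either group, at 28.8 and 53.9 FPKM in the High libraries, against 34.9 and 38.0 FPKM in the Low libraries. It encodes heparin-binding EGF, which binds EGFR and ERBB4. The High libraries lay on either side of the Low libraries, and the log2 fold change of 0.19 ± 0.31 (SE, 95% interval -0.55 to 0.93) did not pass (adjusted p = 0.799). Its sign turned without High library 2 (-0.33, adjusted p = 0.501, range over the alternatives 0.176 to 0.958).

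Tgfa (chromosome 6, 86195223 to 86275719, mm10), which encodes the EGFR ligand TGF-alpha, was at 17.2 and 59.1 CPM in the High libraries, against 10.7 and 11.7 CPM in the Low libraries. High library 2 was far above the rest, and High library 1 only slightly above the Low libraries. The log2 fold change of 1.77 ± 0.60 (SE, 95% interval 0.25 to 3.29) did not pass (adjusted p = 0.224). It was 2.40 and passed without High library 1 (adjusted p = 2.11e-12), passed with DESeq2 (0.0264), and was 0.62 without High library 2 (0.237), with a range over the alternatives of 2.11e-12 to 0.840.

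Nrg1 (minus strand of chromosome 8, 31814551 to 32884029, mm10), the neuregulin that binds ERBB3 and ERBB4, showed the reverse order of the High libraries. It was at 54.1 and 21.5 CPM in the High libraries, against 16.1 and 18.3 CPM in the Low libraries. The log2 fold change of 1.13 ± 0.45 (SE, 95% interval 0.05 to 2.22) did not pass (adjusted p = 0.258). It was 0.32 without High library 1 (adjusted p = 0.593) and 1.65 and past the threshold without High library 2 (2.22e-06), with a range over the alternatives of 2.22e-06 to 0.845.

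**Figure D4:**
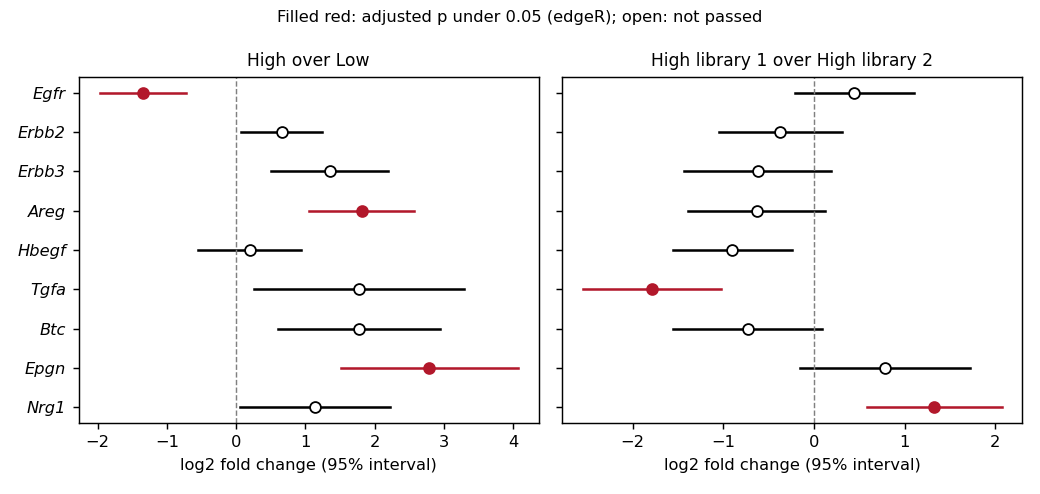
Log2 fold changes (points) with 95% intervals (lines) of the 9 tested members for High over Low (left) and for High library 1 over High library 2 (right), filled red where edgeR's adjusted p was under 0.05. Egfr, Areg and Epgn passed between the groups, and Tgfa and Nrg1 between the High libraries.

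Summed over the 7 ligand genes, FPKM was 98.7 and 130.4 in the High libraries, against 56.4 and 63.4 in the Low libraries. Hbegf made up 29.1% and 41.3% of that sum in the High libraries, against 61.9% and 59.9% in the Low libraries. Areg, Btc and Epgn together made up 38.3% and 39.0% in the High libraries, against 18.6% and 20.5% in the Low libraries. In High library 1 Nrg1 supplied 28.3% and Tgfa 4.24%, whereas in High library 2 Nrg1 supplied 8.56% and Tgfa 11.1%. In the Low libraries Nrg1 made up 14.8% and 15.1% and Tgfa 4.66% and 4.53%. Of the family's ligand genes outside the set, Nrg4 had the highest FPKM. It was at 1.4 and 0.978 FPKM in the High libraries and 1.395 and 1.137 FPKM in the Low libraries, a Low level above that of Epgn in Low library 1. Egf was at 0.215 and 0.318 FPKM in the High libraries and 0.272 and 0.391 FPKM in the Low libraries, Nrg2 at 0.350 and 0.795 FPKM in the High and 0.250 and 0.249 FPKM in the Low libraries, and Nrg3 at 0 throughout.

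The High libraries come from separate clones, so they were also compared with each other, in a fit with 3 groups whose spread rests on the Low duplicates. A lone High library is thereby taken to vary as that pair does, and since that spread may be technical the test compares these libraries and not the clones in general. Of the 9 members, Tgfa was 3.44-fold lower in High library 1 than in High library 2 (log2 fold change -1.78 ± 0.39, SE, adjusted p = 1.20e-04). Nrg1 was 2.51-fold higher in High library 1 (1.33 ± 0.38, SE, adjusted p = 0.00647). Across all genes 10.9% passed in this comparison. Both calls were kept under all 8 alternatives run, with adjusted p from 3.81e-05 to 0.00240 for Tgfa and from 0.00257 to 0.0144 for Nrg1. Hbegf, 1.87-fold lower in High library 1, missed the threshold (95% interval of the log2 fold change -1.56 to -0.25, adjusted p = 0.0598) and passed with limma on log2(FPKM + 1) (0.0429, range 0.0429 to 0.0685). The other 6 members did not pass, with log2 fold changes from -0.73 for Btc to 0.79 for Epgn. The interval was -0.21 to 1.10 for Egfr and -1.39 to 0.12 for Areg.

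Among further genes of the pathway, Lrig1 was the only listed gene that passed the main edgeR test between the groups. Lists of 97 further genes of the pathway held 94 tested genes, of which 1 fell, 0 rose and 93 did not pass, against 1.33% lower and 1.14% higher over all tested genes. An unadjusted p under 0.05 (edgeR) was reached by 13 of the 94, against 18.1% of all tested genes. The median log2 fold change was 0.08 over these 94 genes and 0.03 over all tested genes. The gene that fell was Lrig1, which encodes a membrane protein that promotes the degradation of ERBB receptors. It was at 54.5 and 68.7 CPM in the High libraries, against 149 and 136 CPM in the Low libraries, 2.32-fold lower (log2 fold change -1.21 ± 0.23, SE, adjusted p = 0.0420, range over the alternatives 1.13e-04 to 0.663). The call was kept in 6 of 13 alternatives. The adjusted p was 0.0524 with the library number as a block, 0.0506 to 0.0663 with upper-quartile normalisation, limma-voom and both FPKM scales, 0.619 without Low library 1 and 0.663 without Low library 2. The other 15 tested genes of receptor down-regulation did not pass, with log2 fold changes of 0.48 for Errfi1, 0.85 for the endocytic adaptor Epn1, 0.14 for Hgs and -0.13 for Socs5.

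With the main settings, none of the other pathway lists held a call by edgeR between the groups. Of 8 genes of ligand shedding, 0 passed (1 at an unadjusted p under 0.05). The sheddase Adam10 was at 274 and 267 CPM in the High libraries and 184 and 234 CPM in the Low libraries (adjusted p = 0.445), and Adam17 at 74.1 and 98.8 CPM in the High libraries and 50.8 and 61.2 CPM in the Low libraries (0.244). The log2 fold change was 0.61 for Adam9, -0.40 for Adam12 and 0.24 for Rhbdf1. Of 21 adaptors and RAS-MAPK genes 0 passed (1 unadjusted). The adaptor Grb2 had a log2 fold change of 0.21 (adjusted p = 0.649) and the phosphatase gene Ptpn11 0.25 (0.607). Of 12 PI3K-AKT genes 0 passed (1 unadjusted), with Akt1 at 0.00, Akt2 at 0.49 and the regulatory subunit Pik3r2 at -0.13 on the log2 scale. Of 12 MAPK feedback inhibitors 0 passed (1 unadjusted), the ERK phosphatase gene Dusp6 being at 149 and 124 CPM in the High libraries and 140.0 and 132 CPM in the Low libraries. The 1 under the unadjusted threshold was Spry4, at 2.17 and 2.90 CPM in the High libraries, against 8.62 and 10.3 CPM in the Low libraries. Its log2 fold change was -1.90 (edgeR adjusted p = 0.0778), and it passed edgeR's test with no filter on low counts. Spred1 had a log2 fold change of -0.39, Dusp4 -0.26 and Dusp5 0.60. Of 22 MAPK-induced transcripts 0 passed, and 7 had an unadjusted p under 0.05 (against 18.1% of all genes). Of these, 3 were lower in the High libraries: Etv1 (log2 fold change -2.56), Il11 (-2.24) and Etv5 (-0.67). The 4 that were higher were Fos (1.299), Ccnd1, Klf10 (0.62) and Egr1 (0.57). The most abundant ones had log2 fold changes of 0.18 for Ier3, 0.08 for Junb, -0.04 for Myc and 1.12 for the cyclin gene Ccnd1 (adjusted p = 0.258). Ccnd1 was at 903 and 2200 CPM in the High libraries, against 761 and 668 CPM in the Low libraries. DESeq2 called 6 of the 94 genes, adding Araf, Epn1, Etv1, Il11 and Spry4 to Lrig1, against 8.78% of all genes, and limma-voom called 0, against 1.67% of all genes.

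**Figure D5:**
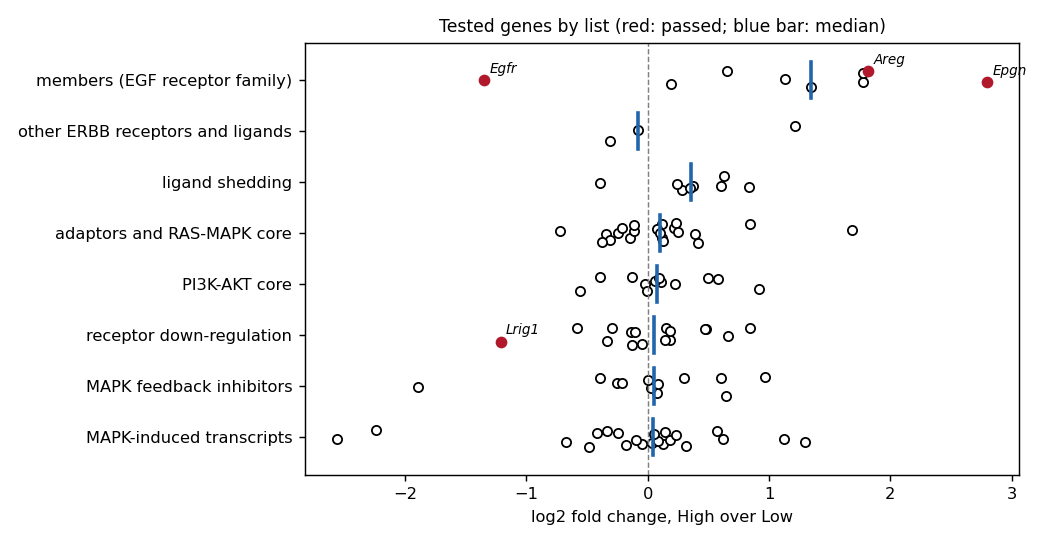
Log2 fold change of High over Low for each tested gene, 1 point per gene, by list, with the list's median as a blue bar and passing genes in red. The members' median of 1.35 stands right of the pathway lists' medians, which lie between -0.08 and 0.36, and Lrig1 is the only passing gene outside the members. Members and lists were chosen with earlier results of these data known.

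Between the High libraries, in the same comparison of single libraries, 19 of the 94 passed (20.2%, against 10.9% of all tested genes), 8 higher and 11 lower in High library 1. Among the MAPK feedback inhibitors, Dusp4 (4.75-fold), Dusp5 (2.32-fold) and Dusp7 (2.77-fold), which encode phosphatases of MAP kinases, were lower in High library 1, and Dusp1 (3.21-fold) and Spry1 (3.20-fold) higher. Among the MAPK-induced transcripts, Etv4 (4.02-fold), Fosl1 (3.13-fold), Ccnd1 (2.43-fold), Plaur (2.36-fold) and Phlda1 (2.21-fold) were lower in High library 1, and Egr2 (3.65-fold) higher. In receptor down-regulation, Errfi1, a feedback inhibitor of EGFR, was 2.17-fold higher (adjusted p = 0.0166) and Cblc, a ubiquitin ligase, 4.47-fold lower (0.00127). The PI3K regulatory subunits Pik3r1 (3.87-fold) and Pik3r3 (2.51-fold) were higher in High library 1 and the kinase Akt1 (2.26-fold) lower. The remaining calls were Adam9 (2.44-fold) and Rhbdl2 (5.27-fold), higher in High library 1, and Rps6ka1 (2.51-fold), lower.

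The genes whose pattern over the 4 libraries lay nearest to that of Egfr and of Areg were found by Euclidean distance between centred log2 CPM values, as a description of 4 points per gene. Nearest to Egfr were Wisp1 (distance 0.142) and Rasl11a (0.158). Wisp1 was at 144 and 108 CPM in the High libraries, against 266 and 331 CPM in the Low libraries. Nearest to Areg were Mfsd6 (0.0519), Gm8300 (0.086) and Tspan1 (0.153). Mfsd6 was at 30.1 and 47.2 CPM in the High libraries, against 11.2 and 11.5 CPM in the Low libraries.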

How the data were processed

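Strand-specific libraries were made from cultured cells, per the labels' protocols. The submitters' processing notes name cutadapt 1.5, TopHat2 2.0.13, Cuffdiff 2.2.1 and build mm10. The annotation and the strand setting were not found there. Per the file headers, the deposited table gives an estimated count of fragments, a scaled signal (fragments times a factor per library, used only to recover those factors) and FPKM per gene and library. Of the estimated counts 99.18% were whole within 1e-06, and all were rounded. A failed status marked 11 genes (0 members), which were left out of the tests.

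Groups were compared by the quasi-likelihood test of edgeR 4.0.16 under R 4.3.3, two-sided, with TMM normalisation, a filter with smallest count 10, and Benjamini-Hochberg adjustment over 12977 genes at 0.05. Residual degrees of freedom were 2, and 1 in the fit with 3 groups; the biological coefficients of variation were 32.2% and 17.2%. Chi-square per degree of freedom was 123.4 for the High and 32.4 for the Low pair, so no libraries were merged.

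The members and lists were chosen with earlier results of these data known. Named were all members, pathway genes that passed, and up to 4 further genes per list by mean FPKM. Exceptions are where the text gives all calls of a list, Adam17, Fos, Etv5, Klf10, Egr1 and the DESeq2 calls, which were added after values were seen. Some genes that this rule names are not reported here. The 500000-base window around the ligand cluster and the motifs were likewise chosen after values were seen. Of 97 pathway symbols 96 were in the table. Positions are from GENCODE M21 (mm10). Every column of values could be mapped to a library. Alternatives were other normalisations and filters, DESeq2 1.42.0, limma 3.58.1, log2(FPKM + 1) and log2(FPKM + 0.1), each library left out, and the replicate number as a block.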

Additional observations from a re-analysis of the deposited data

Results flagged for a closer look

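Tgfa and Nrg1 differed between the High libraries by more than the spread of the Low duplicates, which may be technical, in the fit with 3 groups. The log2 fold change of High library 1 over High library 2 was -1.78 for Tgfa (adjusted p = 1.20e-04) and 1.33 for Nrg1 (adjusted p = 0.00647). Tgfa stood at 17.2 CPM in High library 1 and 59.1 CPM in High library 2, and Nrg1 at 54.1 and 21.5 CPM in the same order, against 10.7 and 11.7 CPM for Tgfa and 16.1 and 18.3 CPM for Nrg1 in the Low libraries. Beside them, the summed fibroblast markers were at 279.3 FPKM in High library 1 and 38.7 FPKM in High library 2, and the epithelial markers at 801.5 and 2499 FPKM. The part of these markers was not tested, and with 1 library per clone a clone cannot be told apart from its library.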

How the results depend on the processing

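Between the groups 3 members passed. The count was 5 with no filter on low counts, where 818 of 16669 tested genes passed. It was 6 with DESeq2, where 1140 of 12977 passed. Limma-voom gave 0 (7 at an unadjusted p under 0.05), where 217 of 12977 passed. With 1 library left out it ran from 0 to 7, being 0 with either Low library left out (3 unadjusted without Low library 1, 4 without Low library 2). For the pathway genes the count of 1 became 0 with upper-quartile normalisation (15 unadjusted), limma-voom (11), log2(FPKM + 1) (10), log2(FPKM + 0.1) (10) and the replicate block (7), 2 with no filter and 6 with DESeq2, and ran from 0 to 18 with 1 library left out (6 and 2 unadjusted without Low library 1 and 2, where it was 0). Of all 12977 tested genes, 2336 had an unadjusted p under 0.05 with upper-quartile normalisation and 2346 with limma-voom. That number was 2348 with log2(FPKM + 1), 2383 with log2(FPKM + 0.1) and 1755 with the replicate block. Hbegf changed sign with 1 library left out (log2 fold change -0.33 to 0.57). The other 8 members kept theirs in every alternative run. With the replicate block 4 members passed, as did 464 of all 12977 tested genes. The library numbers are an arbitrary pairing, and same-numbered libraries deviated with a correlation of -0.139. Over all genes the count of 321 became 818 with no filter, 1140 with DESeq2, 2225 and 2446 without High library 1 and 2, and 0 without either Low library (1003 and 839 unadjusted). The count between the High libraries stayed at 2, or 3 with log2(FPKM + 1). With the main settings 10.9% of all tested genes passed there, and the shares under the alternatives are not reported here. Leaving out a Low library in that comparison could not be fitted with a test, since no residual degrees of freedom remain. The causes were not tested. Low values limit Epgn and Btc most, with 14 and 41 fragments in Low library 1.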
